A study of Triticum aestivum with 10 samples.

Results

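A group of 6 probe sets, of 61179 on the array without its control probe sets, had a steady signal in fertile anthers of the wheat line BS366 and a lower signal in every sterile sample. BS366 is a thermosensitive genic male sterile line, selected from a natural mutant among doubled haploid lines. Fertile plants were kept at 20 °C, and sterile plants spent 5 days at 10 °C from the stage at which the flag leaf was half-emerged, both under 12 h of light. Anthers were collected at a length of 1.5, 2.0 or 2.2 mm and at the greater lengths of 2.5 and 3.0 mm, and each length of each treatment was hybridized to 1 array of the Affymetrix Wheat Genome Array, so that 5 fertile and 5 sterile arrays were compared. All 10 samples share the genotype, and the arrays of a length are matched by that length and not by a stage seen under the microscope. The lengths stand in for replicates, and the sources used here do not say whether separate plants gave the RNA. Any p-value printed below therefore rests only on how these arrays scatter around a straight line on anther length in each treatment. That scatter holds any curved change with length as well as differences between arrays.

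The members were selected on the deposited signals themselves. Signals were raised to a floor of 20, and a member needed a lowest fertile signal of at least 60, a lowest fertile signal at least 1.5 times the highest sterile signal, and a highest fertile signal at most 3 times the lowest fertile signal. The ratio of the lowest fertile to the highest sterile signal is called the margin here. Because the rule used the fertile and sterile signals, the differences between the treatments are given as descriptions with no test.

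In a thermosensitive male sterile line the same plants set pollen or fail to do so depending on the temperature while the pollen mother cells pass through meiosis. In cereals the tapetum, the layer of nurse cells that lines the anther locule, feeds the meiocytes and later the microspores, and cold given around meiosis is known to disturb it. The samples are whole anthers, so a lower signal from fewer cells of a type and from less RNA per cell cannot be told apart. Bread wheat is hexaploid and carries most genes as several near-identical homoeologous copies, which a probe set of short oligonucleotides may or may not distinguish.

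None of the 6 members had a gene in the platform annotation used here, which names a gene for 1273 probe sets (771 genes). They are therefore called by their probe set identifiers, and no function can be attached to them. Identifiers that start with Ta. carry the number of a UniGene cluster of wheat transcripts, and those that start with TaAffx. come from sequences clustered by the array's maker. The prefix TaAffx. was carried by 4 of the 6 members, against 19.6% of the 12586 probe sets with a steady fertile signal of at least 60 and 48.5% of all probe sets. All 6 members ended in a plain _at, the suffix of a probe set designed to match a single transcript, as did 59.7% of the steady probe sets and 79.2% of all.

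TaAffx.4230.1.A1_at had the widest margin, 2.61. Its fertile signals were 91.0, 86.2, 129.3, 104.0 and 124.8 from the shortest to the longest anthers. Its sterile signals at the same lengths were 22.3, 20.8, 29.8, 22.4 and 33.0. All sterile values lay far under the lowest fertile value, and the highest signal of each group came from another length (2.2 mm in the fertile and 3.0 mm in the sterile series). The mean log2 difference, sterile minus fertile, was -2.06 (SD 0.11 over 5 lengths), that is 4.18-fold lower. The fold ran only from 3.78 to 4.64 over the lengths. The median signal of whole arrays was 20.7 to 24.1, so the sterile signals of this probe set were near the middle of all probe sets on the array, at a level where a MAS5 signal may be mostly background.

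Ta.3563.1.S1_at had the widest fertile range of the 6, 1.68-fold. Its fertile signals were 322.1, 356.9, 494.4, 494.5 and 542.0 in order of length. Its sterile signals were 116.6, 157.1, 150.7, 183.6 and 170.7. The lowest signal of both series belonged to the shortest anthers, and the highest sterile signal was still well under the fertile signal of the shortest anthers (margin 1.75). The mean log2 difference was -1.49 (SD 0.21, n = 5), or 2.81-fold lower, with folds from 2.27 at 2.0 mm to 3.28 at 2.2 mm.

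TaAffx.116171.1.S1_at and TaAffx.14498.1.S1_at had nearly level fertile signals. For TaAffx.116171.1.S1_at these were 104.0, 92.1, 100.04, 91.1 and 96.0, against sterile signals of 42.9, 53.2, 45.7, 49.5 and 32.0. The fertile values of this dim probe set spanned 1.14-fold, the sterile ones 1.66-fold, and the groups stood apart by a margin of 1.71. Its mean log2 difference was -1.13 (SD 0.32, n = 5), or 2.19-fold lower, and it was smallest at 2.0 mm (1.73-fold) and largest at 3.0 mm (3.00-fold), where the sterile signal was lowest. For TaAffx.14498.1.S1_at the fertile signals were 529.3, 504.4, 487.4, 474.1 and 486.1, and the sterile signals were 232.5, 193.5, 278.3, 178.0 and 199.1. The fertile values spanned 1.12-fold, and the sterile array of 2.2-mm anthers was the one closest to them. The mean log2 difference was -1.22 (SD 0.24, n = 5), or 2.32-fold lower, with a margin of 1.70. Among the 14405 probe sets whose lowest fertile signal was at least 60, only 0.25% had a fertile range as small as that of TaAffx.14498.1.S1_at and 0.58% one as small as that of TaAffx.116171.1.S1_at. The rule limits the fertile range of members and uses their lowest fertile signal, so small ranges were in part selected.

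Ta.6665.3.S1_at had the most uneven difference of the 6. Its fertile signals were 495.5, 429.8, 386.5, 513.9 and 524.5. Its sterile signals were 166.8, 201.0, 234.2, 120.2 and 126.0. The fertile and sterile series bent in opposite ways, with the fertile minimum and the sterile maximum both at 2.2 mm, so that the groups came closest there (1.65-fold, which is also the margin) and lay furthest apart at 2.5 mm (4.27-fold). The mean log2 difference was -1.51 (SD 0.60, n = 5), or 2.85-fold lower.

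TaAffx.109517.1.S1_at was the member nearest to the threshold, with a margin of 1.51. Its fertile signals were 167.8, 192.5, 168.4, 166.6 and 260.5, and its sterile signals were 58.0, 89.2, 98.3, 110.1 and 83.2. The fertile series was level except for the array of 3.0-mm anthers, while the sterile signals were lowest in the shortest anthers and highest at 2.5 mm. The sterile signal was 1.51-fold lower in the 2.5-mm pair and 3.13-fold lower in the 3.0-mm pair, and the mean log2 difference was -1.13 (SD 0.46, n = 5), or 2.19-fold lower. With each array scaled to a common median the margin of this probe set was 1.38, and with quantile normalization it was 1.40. It then left the group, and Ta.6665.3.S1_x_at entered it in both cases. The margins of the other 5 members under these 2 scalings were 1.51 to 2.35.

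**Figure D1:**
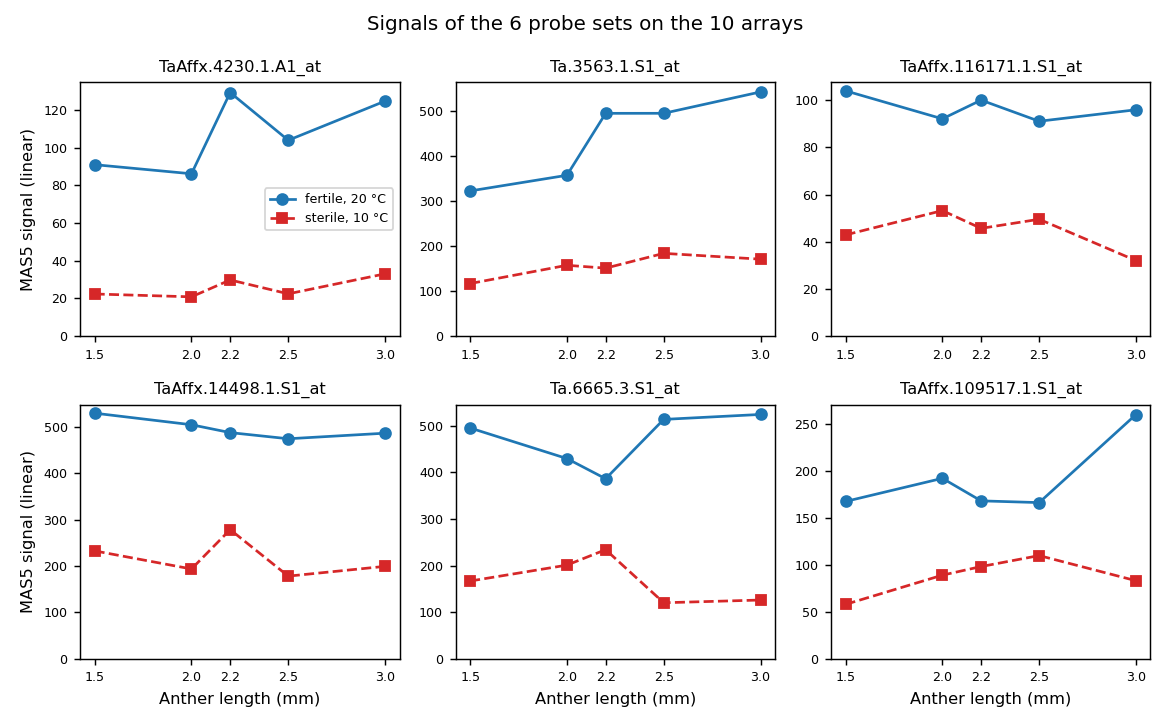
MAS5 signal on a linear axis (vertical) against anther length in mm (horizontal) for the 6 members, 1 panel each, with 1 array per point, fertile arrays as circles with solid lines and sterile arrays as squares with dashed lines. In each panel all 5 sterile points lie under all 5 fertile points, with the widest gap in TaAffx.4230.1.A1_at (margin 2.61) and the narrowest in TaAffx.109517.1.S1_at (1.51).

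The 6 members had their smallest differences at different lengths. From the shortest to the longest anthers, the median over the members was 2.83-, 2.21-, 1.96-, 2.68- and 3.15-fold lower. The least affected member was 2.28-fold lower at 1.5 mm and 2.44-fold lower at 3.0 mm, but only 1.73-, 1.65- and 1.51-fold lower at the lengths between. Over all 30590 probe sets tested below, the median log2 difference was between -0.13 and 0.17 at every length. At 1.5 and 3.0 mm, 1.3% and 1.26% of the steady probe sets were lower in sterile anthers by at least as much as the least affected member, against 14.5% at 2.5 mm. In the mean over the lengths, 56 of the 12586 steady probe sets had a difference at least as large as that of the least affected member, so most of those had groups that overlapped or a margin under the threshold.

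**Figure D2:**
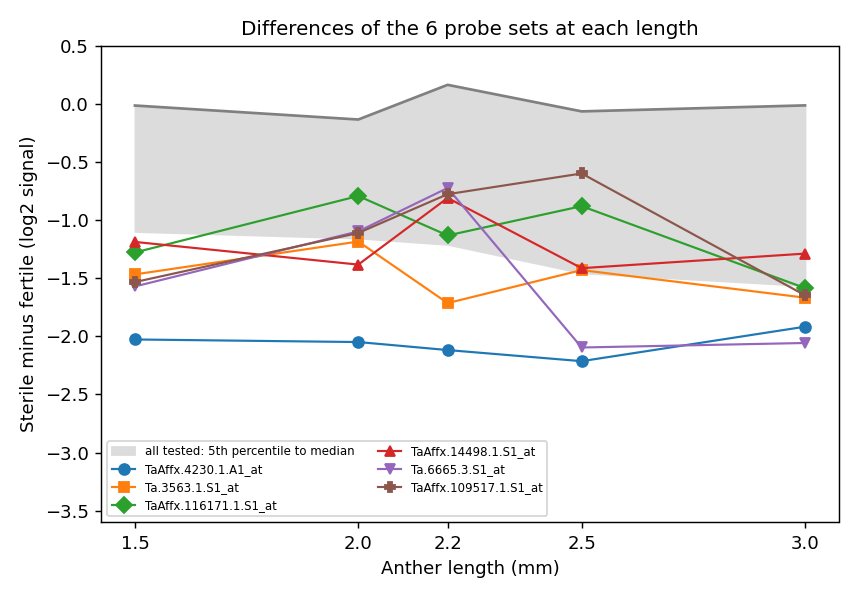
Sterile minus fertile difference of log2 signal (vertical) against anther length in mm (horizontal) for the 6 members, with the median and the 5th percentile of the 30590 tested probe sets as the upper and lower edges of the grey band. TaAffx.4230.1.A1_at stays near -2 at every length, and Ta.6665.3.S1_at runs from -0.72 at 2.2 mm to -2.10 at 2.5 mm.

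The steps of the rule show how few probe sets it left. A lowest fertile signal of 60 was reached by 14405 probe sets, and 12586 of these kept their fertile signals within 3-fold. The fertile and sterile signals did not overlap, with the fertile ones higher, in 302 of these (2.40%), and the margin reached 1.5 in 6 (0.0477%). The mirror rule, with the treatments exchanged, began from 15195 probe sets with a steady sterile signal, of which 430 (2.83%) did not overlap and 9 (0.0592%) had a margin of at least 1.5. The numbers of probe sets at margins of 1.1, 1.2 and 1.3 were 104, 40 and 20 lower and 115, 32 and 18 higher in sterile anthers. Margins of at least 1.7 were found for 4 probe sets in the lower direction and 7 in the higher one, and TaAffx.4230.1.A1_at was the one probe set past 2 in either direction. These shares come from the contrast that chose the members and are given for scale.

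**Figure D3:**
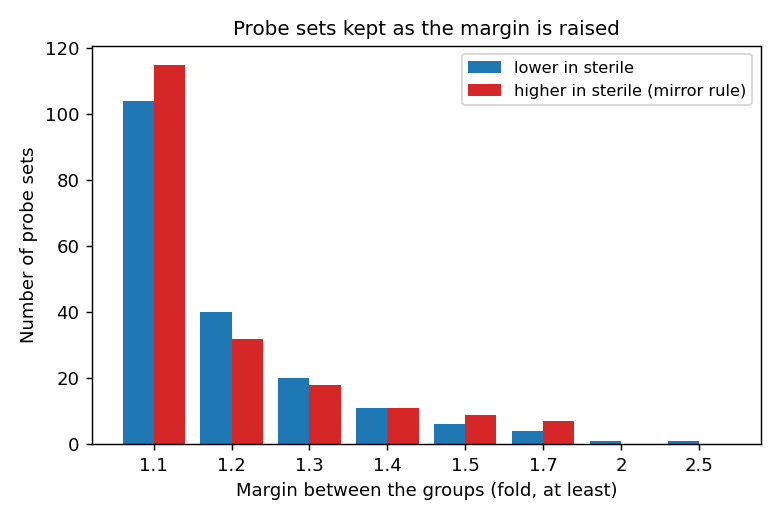
Number of probe sets (vertical) whose groups stand apart by at least the margin on the horizontal axis, lower in sterile anthers or, by the mirror rule, higher. At a margin of 1.5 the bars stand at 6 and 9, and at 2 at 1 and 0.

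Just inside the threshold were TaAffx.109517.1.S1_at (1.51), Ta.6665.3.S1_at (1.65), TaAffx.14498.1.S1_at (1.70), TaAffx.116171.1.S1_at (1.71) and Ta.3563.1.S1_at (1.75). Just outside were Ta.25525.1.S1_at (1.48), Ta.6665.3.S1_x_at (1.45), TaAffx.132743.6.S1_x_at and Ta.14593.1.S1_at (both 1.41) and Ta.6586.2.S1_a_at (1.40), so no gap separated the members from the rest. Ta.25525.1.S1_at had fertile signals of 149.2, 139.3, 156.0, 268.0 and 223.1 against sterile ones of 84.3, 65.6, 68.0, 75.1 and 94.4. Its mean difference, 2.36-fold, was larger than that of the member TaAffx.14498.1.S1_at, but the sterile signal at 3.0 mm came closer to the lowest fertile one. Ta.8890.1.S1_a_at had a margin of 1.63 but was left out because its fertile signals were not steady: they were 194.2, 211.5, 174.2, 249.7 and 816.8, against sterile signals of 77.7 to 106.6. A further 4 probe sets (Ta.4871.1.A1_at, Ta.5546.1.S1_a_at, TaAffx.110947.1.S1_at and TaAffx.121900.1.S1_at) had margins of 1.52 to 1.69 with a lowest fertile signal under 60.

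**Figure D4:**
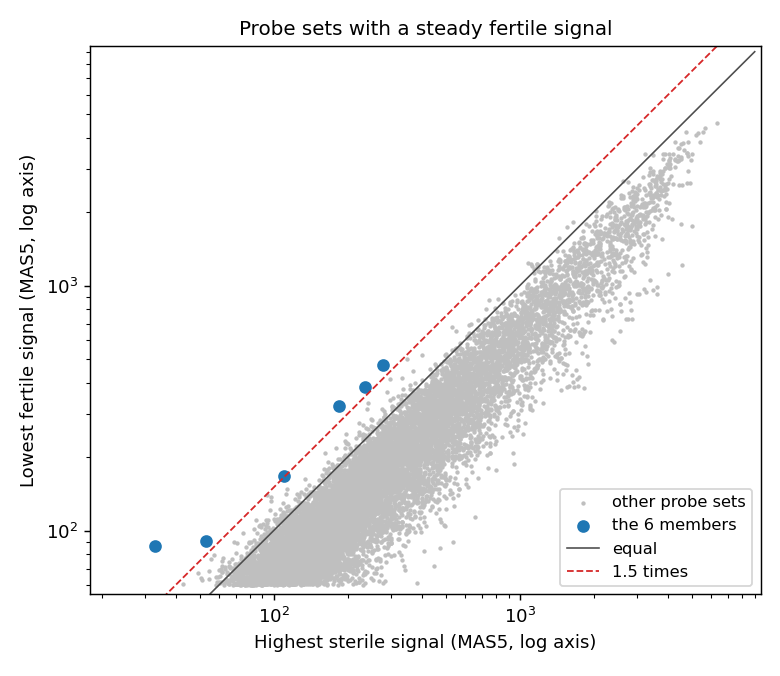
Lowest fertile signal (vertical, log axis) against highest sterile signal (horizontal, log axis) for the 12586 probe sets with a steady fertile signal of at least 60, with lines at equality and at 1.5 times. The 6 members, as large circles, lie on or above the dashed line, and TaAffx.4230.1.A1_at lies furthest to the left, at 33.0 and 86.2.

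Other probe sets of the same clusters gave a mixed account of 2 members. The cluster number Ta.6665 is carried by 4 probe sets, made for the sequences Ta.6665.1 and Ta.6665.3. Ta.6665.3.S1_x_at, whose suffix marks probes that may match other transcripts as well, had fertile signals of 730.9, 593.4, 502.1, 664.8 and 750.4 and sterile signals of 237.6, 252.0, 346.9, 185.9 and 202.8. It followed the course of the member Ta.6665.3.S1_at at every length, with a mean difference of 2.68-fold, and missed the margin at 2.2 mm. The 2 probe sets may share probes. Ta.6665.1.S1_at ran the other way, with fertile signals of 1409, 1130, 798.0, 879.4 and 1050 and sterile signals of 2508, 2685, 2597, 2822 and 2625. All 5 sterile signals lay above all 5 fertile signals, and the mean log2 difference was 1.36 (SD 0.36, n = 5), or 2.56-fold higher. Ta.6665.1.S1_x_at was 2.58-fold higher in the same way. Both of these belong to the 9 probe sets of the mirror rule, with margins of 1.78 and 1.70.

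Opposite directions within a cluster number were rare under this scaling. Of 45705 cluster numbers, 2903 had at least 2 probe sets bright enough for either rule, and Ta.6665 was the single one with a probe set lower and a probe set higher in sterile anthers without overlap. In 25 cluster numbers at least 2 probe sets were lower without overlap and none higher, and in 35 at least 2 were higher and none lower. Ta.6665 was singled out after its values were seen. It stayed among those found under each of 9 other settings, which were chosen after seeing the data. Leaving out a length pair or setting the level minimum to 30 or 100 could not have removed it. Only quantile normalization and median scaling could have done so. It was joined by 1 or 2 other cluster numbers after quantile normalization or median scaling, and by up to 7 without a length pair. Whether the Ta.6665 sequences are homoeologous copies, forms of 1 transcript or separate genes was not tested, since no sequences of the array were used here.

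**Figure D5:**
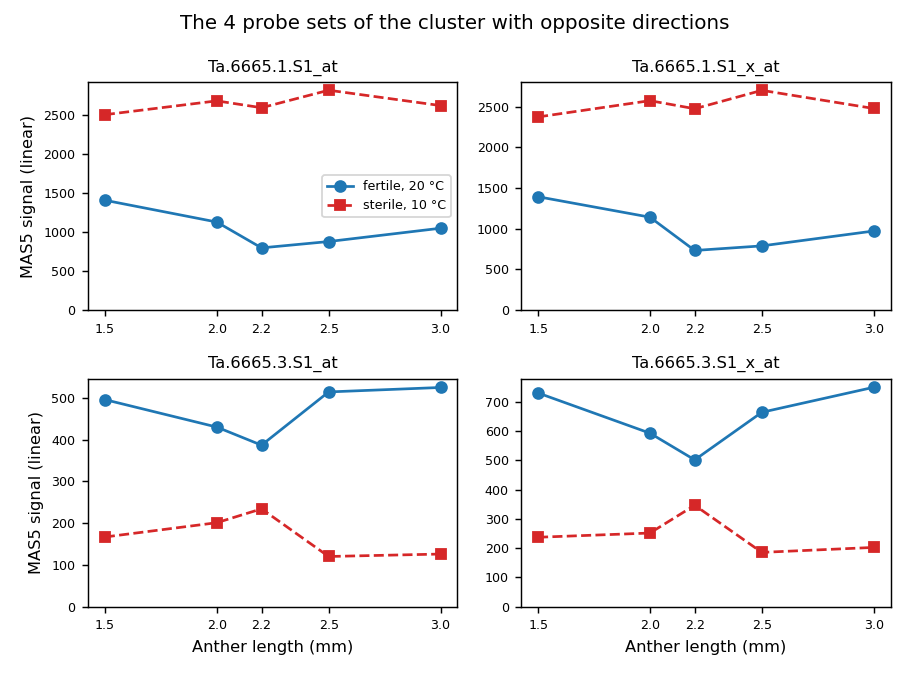
MAS5 signal on a linear axis (vertical) against anther length in mm (horizontal) for the 4 probe sets numbered Ta.6665, fertile arrays as circles and sterile arrays as squares. The 2 probe sets of Ta.6665.1 (upper panels) have all sterile points above the fertile ones, and the 2 of Ta.6665.3 (lower panels) have all of them below.

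The other cluster mate was TaAffx.4230.1.A1_s_at, whose suffix marks probes shared by several transcripts. Its fertile signals were 31.4, 39.2, 34.8, 40.6 and 53.1 and its sterile signals were 32.4, 33.3, 34.4, 32.6 and 15.7. The groups overlapped, and the difference was under 1.25-fold except at 3.0 mm, where it was 3.39-fold. The difference of TaAffx.4230.1.A1_at was not seen in this dimmer probe set at the shorter lengths. The remaining 4 members had no other probe set under their cluster number.

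The rule put no limit on how the sterile signals varied, except through their highest value. The fertile signals of the members spanned 1.43-fold in the median and the sterile ones 1.62-fold, against 1.79- and 1.42-fold for the 14405 bright probe sets. The members were thus among the steadier probe sets in fertile anthers, which the rule required in part, and had wider sterile ranges than the median probe set: 66.1% to 86.9% of the bright probe sets had a sterile range as small or smaller. The bright probe sets were not matched to the members in sterile signal, which the rule holds under the fertile signals. The part of signal level in the wider ranges was not tested. A trend with anther length was tested with limma over 30590 probe sets, with a straight line for each treatment and 6 residual degrees of freedom. No probe set passed for the slope in sterile anthers at a Benjamini-Hochberg adjusted p of 0.05 (0%), and 2447 (8.00%) had an unadjusted p under 0.05. None of the 6 members was among those. For the slope in fertile anthers the same fit called 1627 of the 30590, with 0 members, whose fertile range the rule limits. The largest fertile slope of a member was 0.54 log2 units per mm (SE 0.19, limma adjusted p = 0.13), for Ta.3563.1.S1_at.

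In sterile anthers the slope estimates of the members were positive for 3 and negative for 3. They were 0.38 log2 units per mm (SE 0.19, 95% interval -0.04 to 0.80, limma adjusted p = 0.67) for Ta.3563.1.S1_at, 0.37 (SE 0.26, adjusted p = 0.78 from limma) for TaAffx.109517.1.S1_at and 0.35 (SE 0.26, adjusted p = 0.80 from limma) for TaAffx.4230.1.A1_at. They were -0.17 (SE 0.20, limma adjusted p = 0.89) for TaAffx.14498.1.S1_at, -0.28 (SE 0.23, limma adjusted p = 0.83) for TaAffx.116171.1.S1_at and -0.41 (SE 0.27, 95% interval -1.01 to 0.18, limma adjusted p = 0.76) for Ta.6665.3.S1_at. None of these could be distinguished from 0, and over the 6 members the 95% intervals reached from -1.01 to 0.94 log2 units per mm.

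The change of the difference with anther length gave no call either. No probe set passed (0%), and 3653 (11.9%) had an unadjusted p under 0.05, none of them a member. The difference of Ta.6665.3.S1_at changed by -0.52 log2 units per mm (SE 0.38, 95% interval -1.36 to 0.32, limma adjusted p = 0.64). The other 5 estimates lay between -0.20 and 0.04, with limma adjusted p-values of 0.86 to 0.99. For TaAffx.4230.1.A1_at the estimate was 0.04 (SE 0.37, 95% interval -0.78 to 0.85). The rule bounds the fertile signals, and these slopes are therefore partly limited by the selection.

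No named gene could stand in for the members. Of 478 annotated probe sets with a steady fertile signal of at least 60, the groups did not overlap with fertile higher in 9, a share near the 2.40% of all steady probe sets, and the largest margin was 1.28 (Ta.4537.1.S1_at, LOC780658). Those with a name were TCTP, a translationally controlled tumour protein, with a margin of 1.07, and XIP-I, a xylanase inhibitor, with 1.03. The 11 lists of gene names covered photosynthesis, sugar and starch, cold, antioxidant enzymes, tapetum, translation, protein folding, chromatin, cytoskeleton, hormones and transport. Each held 0 to 9 steady probe sets. They held 0 members, which was certain because no member had a gene in the annotation. They also held 0 probe sets without overlap, which so few steady probe sets cannot tell from the 2.40% of all.

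Markers listed for the tapetum, green tissue and dividing cells gave a summed signal in both treatments, and no other tissue was compared. The 4 probe sets of TaRAFTIN1A and TaRAFTIN1B, genes of a tapetal protein that rice needs for pollen development, summed to 5494 to 19133 in fertile and 1826 to 9189 in sterile anthers, and each was lower in sterile anthers at 5 lengths. Of 12 listed genes of green tissue, 6 had probe sets in the annotation. Their 36 probe sets summed to 14190 to 25956 in fertile and 12451 to 17861 in sterile anthers. Of these, PRK, PsbO and both probe sets of PsbP were likewise lower in sterile anthers at 5 lengths. The probe sets of petC were lower at 5 and 3 lengths, those of FBP at 5 and 2, and those of rbcl at 0 to 5. Much of the green-tissue sum came from 2 probe sets of rbcl. Their fertile signals were 4604 to 8573 and 4385 to 7523, and their sterile signals 4874 to 6308 and 4398 to 5649. The 20 probe sets of histone and tubulin genes, which are high in dividing cells, summed to 13242 to 38963 and 29931 to 47433. Most histone probe sets were lower in sterile anthers at 0 lengths, with exceptions at 1 or 4 lengths. At each length the 18S rRNA control was brighter on the sterile array, by 5.71- to 14.5-fold in signals without a floor. At 1.5 mm its signal was 314.9 on the fertile and 2833 on the sterile array. In all longer anthers its fertile signals were 2.22 to 9.26, under the floor of 20, against sterile signals of 32.3 to 134.7. The folds at those lengths are therefore uncertain, since such fertile signals may be mostly background. The fertile array of 3.0-mm anthers had a mean r of 0.786 with the other arrays, against 0.867 to 0.917 for the rest. The hybridization controls averaged 750.4 on the fertile array of 2.2-mm anthers, against 232.9 to 355.7 on the rest. The poly-A spike controls varied more, from 73.9 on the fertile 2.2-mm array to 747.2 on the sterile 2.5-mm array. The part of tapetal content, rRNA or array quality in the differences of the members was not tested. All 6 members kept their place without the 3.0-mm pair, without the 2.2-mm pair and without each other pair. This was certain, since leaving out arrays cannot remove a member, so it tells nothing about the part of any array. The whole count became 57 without the 3.0-mm pair and 47 without the 1.5-mm pair, since fewer arrays then have to stand apart.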

How the data were processed

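The authors deposited intensity values for 61290 probe sets on 10 arrays, which are linear MAS5 signals from 0.0167 to 8641. The sources used here give no version of MAS5. Detection calls were not used here. The number of arrays sets the precision. The 111 control probe sets were left out. Members and gene lists were chosen with earlier results of these data known. Members and counts used Python 3.11.15 and pandas 2.3.3. For the slopes, signals under 4.05 (the 20th percentile) were set to it. Log2 signals of the brighter part of the probe sets (30590, those not under the median level) were fitted with limma 3.58.1 in R 4.3.3. The fit used eBayes with an intensity trend, a slope on length in each treatment and Benjamini-Hochberg adjustment. It was also run on simulated data. Arrays were grouped by treatment and matched by anther length per the labels. The probe sets eligible to be named were all members, the 5 nearest on each side of the margin and those sharing a cluster number with a member. Up to 5 with the smallest p per direction (among the 20 smallest) were eligible too, for the sterile slope and for the change of the difference. Ta.8890.1.S1_a_at, the 4 dim probe sets, LOC780658, TCTP, XIP-I, the tapetum genes and the green-tissue genes were named besides. The RefSeq table (assembly IWGSC CS RefSeq v2.1) held 770 of the 771 annotated genes. The alternatives were other floors, margins, levels and fertile ranges, quantile normalization, median centring, other filters, eBayes without a trend, the order of the lengths, sterile arrays alone, length as a block, and leaving out each pair and each array. Promoters and sequences were not analysed here.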

Additional observations from a re-analysis of the deposited data

Results flagged for a closer look

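Over 30 groups of 5 values (fertile signals, sterile signals and differences of the 6 members and their 4 cluster mates), 2 held a value far from the other 4, both in TaAffx.4230.1.A1_s_at, and chance gives about 1 in 20. Its sterile signal at 3.0 mm was 15.7, and its log2 difference at that length was -1.76. No value of a member stood apart in this way.

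The control probe set for 18S rRNA, which enters no comparison, was higher on the sterile array at every length, by at least 5.71-fold.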

How the results depend on the processing

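The count of 6 probe sets depended on the margin, with 20 at a margin of 1.3 and 1 at a margin of 2. It was 4 to 9 with other floors, level minimums, fertile ranges and scalings. It was 7 to 57 without 1 length pair and 6 to 27 without 1 array. All 6 members stayed in each leave-out, as they had to, since leaving out arrays cannot remove a member. The lowest counts came without the 2.5-mm pair and without the sterile 2.0- or 2.5-mm array, and the highest without the 3.0-mm pair (57), the 1.5-mm pair (47) and the fertile 1.5-mm array (27). The count was also over 1.5 times the full count without the 2.0-mm pair (12) and the 2.2-mm pair (14). The same held without the fertile 2.0-, 2.2- or 3.0-mm array (12, 10 and 11) and the sterile 2.2- or 3.0-mm array (10 and 24). A rule over fewer arrays can only gain probe sets, and why the gains differed was not tested.

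For the slope in sterile anthers, limma called 0 probe sets except with the sterile arrays alone (295, none a member), and 0 in each leave-out. For the change of the difference it called 0, also with length as a replicate block (3414 at an unadjusted p under 0.05), and 0 to 13 without 1 pair and 0 to 900 without 1 array. These were 13 without the 1.5-mm pair, 900 without the fertile 1.5-mm array and 1 without the fertile 2.0-mm array, and the cause was not tested. No member passed in any of the 144 alternative estimates of either slope, of which 4 and 13 had another sign. With 1 array per length and treatment, no difference at a single length has a replicate, and signals near the array median may be mostly background.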

Other observations

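No probe set passed the limma test of the slope in sterile anthers, and the smallest p-values belonged to none of the 6 members. With the signal higher in longer sterile anthers, Ta.1988.3.S1_at, Ta.8792.3.S1_a_at, Ta.28354.1.S1_at, TaAffx.128414.176.S1_x_at and Ta.4176.1.S1_x_at, a probe set of TaRAFTIN1A, had slopes of 1.42 to 1.83 log2 units per mm. With the signal lower in longer sterile anthers, Ta.11909.1.A1_s_at, Ta.6644.2.S1_at, Ta.6644.3.S1_x_at and Ta.6644.3.S1_a_at had -3.00 to -1.21. The limma adjusted p was 0.34 for all 9. The members' slopes in sterile anthers lay between -0.41 and 0.38.

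For the change of the sterile minus fertile difference with anther length, Ta.4315.2.S1_x_at, Ta.2678.1.S1_x_at, Ta.6534.1.S1_at, TaAffx.84713.2.S1_at and Ta.9577.1.S1_at had -4.29 to -1.86 log2 units per mm, with limma adjusted p-values of 0.12 to 0.16. In the other direction Ta.28202.1.S1_at, Ta.7729.1.S1_at, Ta.27417.1.S1_at, Ta.7467.2.S1_x_at and Ta.2690.1.S1_at had 2.10 to 3.06 (limma adjusted p 0.16 to 0.17). The members' estimates of the same quantity lay between -0.52 and 0.04.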
